A study of Mus musculus with 2 samples.

Results

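The mitochondrial ribosomal protein genes are the nuclear genes whose symbols begin with Mrpl (large subunit) or Mrps (small subunit) followed by a number. A gene was taken when at least 1 probe set named it alone, and its value was that of the probe set with the highest mean log2 intensity over both arrays. This gave 76 genes, 47 of the large and 29 of the small subunit, among 18194 genes that a probe set named alone. Genes were taken by name, not by the difference between the arrays, although earlier results of these data were known when this set was chosen. Mrpl30 and Mrpl53 were on the array only in probe sets shared with another gene and were not members.

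The cells were urogenital sinus mesenchyme (UGM), the embryonic stroma around the urogenital sinus from which the prostate forms, from male C57BL/6 mice at day 16. The untreated culture was held in RPMI medium with 5% charcoal-stripped serum, from which steroids have been removed, and 5 µg/ml Plasmocin, an antibiotic. The T+E2 culture was given testosterone at 12 nM and estradiol-17 beta at 120 pM, with the serum of its medium not restated in the labels, and the series asks which genes these hormones induce. Treatment lasted 72 h by every label except the sample titles, which carry 24 h. The labels also conflict on cell density before treatment, which is 80% confluency for both cultures in one field and confluent against near confluent in another, so density and hormone cannot be told apart here. How many animals stood behind each culture is not stated in the labels.

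Each condition had 1 Affymetrix array, so the differences below have no replicate check and no p-value, and having so few arrays is what limits their precision. Values are GCRMA intensities, a background-corrected and normalised brightness per probe set, given as log2. A floor of 5 (log2) was set, differences are T+E2 minus untreated, and a gene was measured when either array reached the floor. Of all named genes 10267 were measured, with a median difference of 0.07, and the 18 hybridization spike probe sets differed by -0.25 to 0.09 with an SD of 0.12. In bulk RNA, fewer cells of a type and less RNA per cell cannot be told apart. Of 16 mesenchyme markers 10 were measured, and their summed intensity over the 15 on the array was 141300 in untreated and 163001 in T+E2 cells. Vim and the collagen genes Col1a1, Col1a2 and Col3a1 were high on both arrays, while Thy1, Gli1, Fgf10, Hoxa13 and Hoxd13 lay under the floor on both. Of 12 epithelial markers 2 were measured (summed intensity 341 and 587), of 8 endothelial markers 1 (935 and 1071) and of 8 leukocyte markers 2 (1166 and 479). The cadherin gene Cdh1 read 41.4 untreated and 190 after T+E2 (4.59-fold higher), and Trp63 differed by 0.47. The macrophage gene Lyz2 read 1065 and 369 (2.89-fold lower), while Cd14, the other measured leukocyte marker, read 70.1 and 78.7 (0.17). Epcam, Krt5, Krt8, Pecam1, Cdh5 and Ptprc lay under the floor, and the part of these marker differences in the results below was not tested.

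Mitochondria keep a small genome whose messenger RNAs encode core subunits of the respiratory chain, and they translate these messages on their own ribosomes. The ribosomal RNAs come from mitochondrial DNA, whereas the proteins are encoded in the nucleus, made in the cytosol and imported. Many of these proteins descend from bacterial ribosomal proteins, and others have no bacterial counterpart and are called mitochondria-specific. The large subunit joins amino acids and holds the tunnel through which the new chain leaves, and the small subunit binds and decodes the messenger RNA.

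Nearly every mitochondrial ribosomal protein gene had a lower signal with T+E2. Both arrays measured all 76 members above the floor. Of these 72 (94.7%) lay below 0, against 43.7% of all measured genes, and 4 lay above it. The median difference was -0.63 (interquartile range -0.84 to -0.37), and the median member had 12.7% of measured genes below it. At least 1.5-fold lower (a log2 difference of -0.58 or less) were 40 members (52.6%), against 14.1% of measured genes. At least 2-fold lower were 11 members (14.5%), against 4.01% of measured genes. No member was 1.5-fold higher, where the share over measured genes was 17.1%, and none was 2-fold higher, where it was 4.96%. Over all genes, 509 were at least 2-fold higher and 412 lower, and after centring on the median difference 408 were higher and 520 lower. With centring the members below 0 numbered 73 and those at least 2-fold lower 16. Averaging a gene's probe sets instead of taking the brightest one gave 5 members past 2-fold instead of 11.

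**Figure D1:**
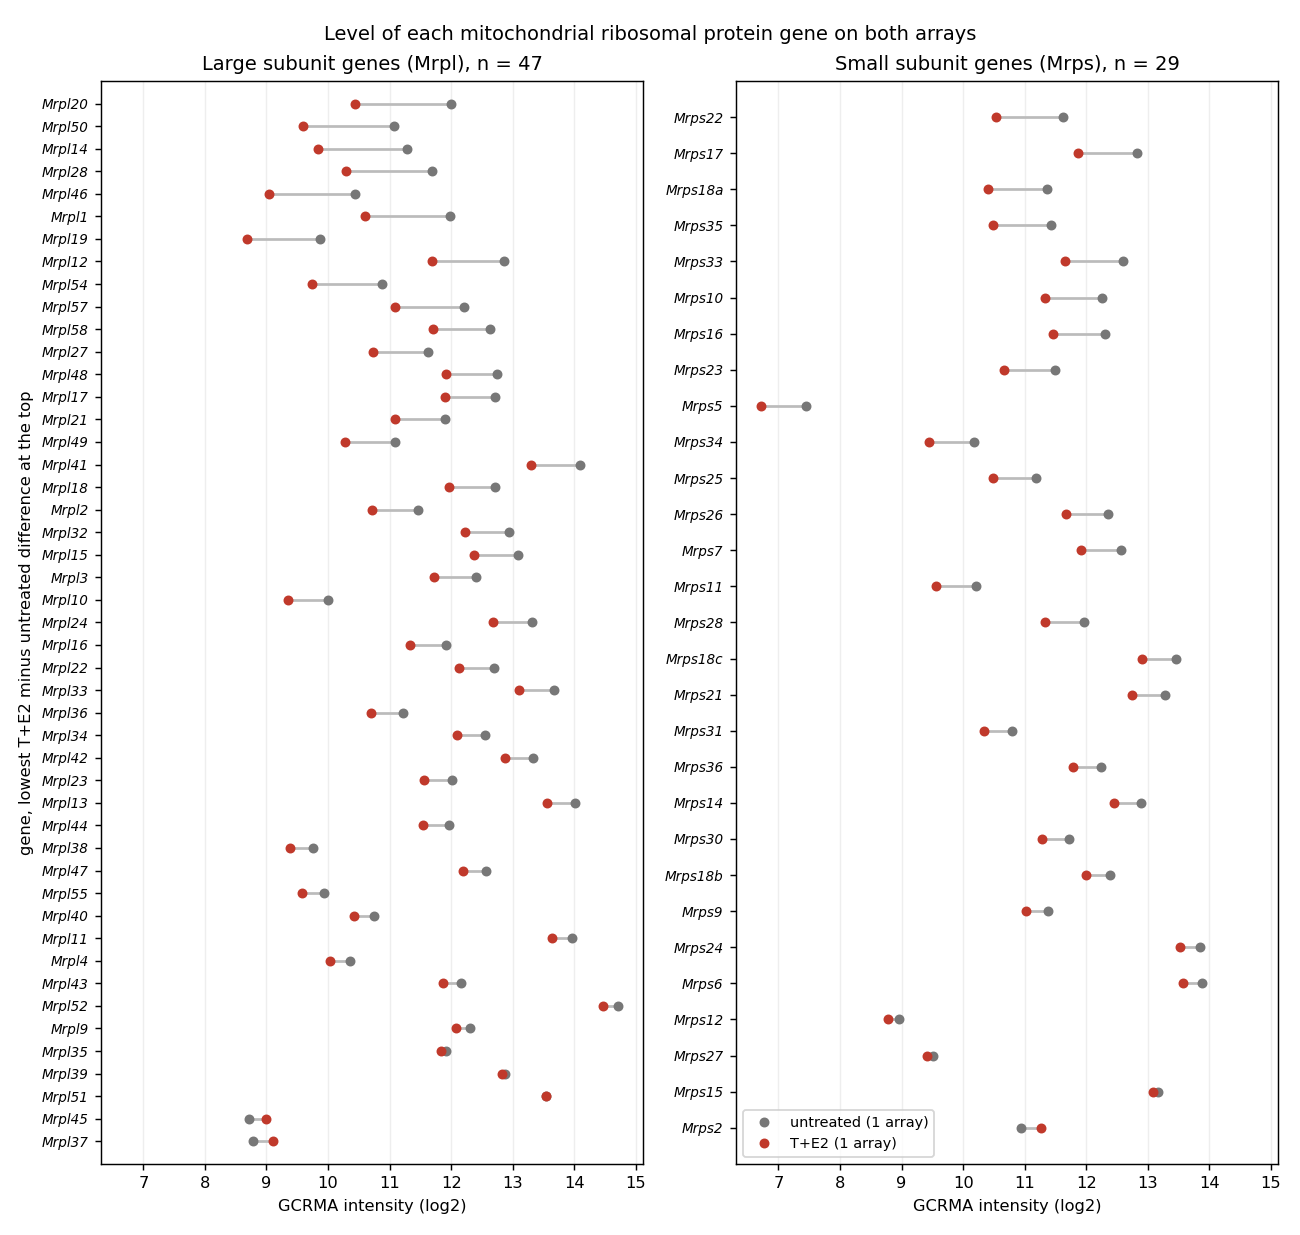
Log2 GCRMA intensity (horizontal axis) of each mitochondrial ribosomal protein gene on the untreated array (grey) and the T+E2 array (red), large subunit on the left (n = 47) and small subunit on the right (n = 29), sorted by the difference. The red point lies left of the grey one in 72 of 76 genes, and the widest gap is that of Mrpl20 (-1.56); positions of different genes come from different probes and are not comparable.

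The large and the small subunit had almost the same median. It was -0.63 for the 47 large subunit genes and -0.63 for the 29 small subunit genes. Below 0 were 44 of 47 (93.6%) and 28 of 29 (96.6%). At least 1.5-fold lower were 25 of 47 (53.2%) and 15 of 29 (51.7%). The subunits differed more in their lower tails, since 10 of 47 large subunit genes (21.3%) and 1 of 29 small subunit genes (3.45%) were at least 2-fold lower. After centring these counts were 11 and 5, and with averaged probe sets 4 and 1. The differences ran from -1.56 to 0.33 in the large subunit (SD 0.45 over its genes) and from -1.08 to 0.34 in the small one (SD 0.32). Genes of a subunit are not replicates of a condition, so with 1 array each the difference between these tails could not be tested.

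In the large subunit the lowest member was Mrpl20, a relative of a bacterial protein that acts early in subunit assembly. Its intensity was 4089 untreated and 1388 after T+E2, which is 2.95-fold lower (-1.56). Only 0.789% of measured genes had a lower difference. Mrpl50, which is mitochondria-specific, had 2149 and 772 (-1.48). Mrpl14, whose product binds the assembly factor encoded by Malsu1, had 2489 and 919 (-1.44). Malsu1 itself, named after its value was seen, lay at -0.96. Mrpl28 had 3311 and 1260 (-1.39). Mrpl46, a component of the central protuberance on top of the subunit, had 1384 and 527 (-1.39). Mrpl1, whose product forms the stalk beside the exit for spent transfer RNA, had 4049 and 1550 (-1.39). In these probe sets the 6 genes were each at least 2.61-fold lower, and 1.17% or fewer of measured genes lay below any of them. Mrpl50 had another measured probe set (1339 and 1014) at -0.40. With probe sets averaged, Mrpl50 lay at -0.94, Mrpl28 at -0.74 and Mrpl1 at -0.34, while Mrpl20, Mrpl14 and Mrpl46 had a single probe set.

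At the other end of the large subunit, the 3 members above 0 were low-amplitude differences. Mrpl37 read 440 untreated and 553 after T+E2 (0.33). Mrpl45, whose product sits at the tunnel exit and ties the ribosome to the inner membrane, had 422 and 511 (0.28). Mrpl51 was level, at 11886 and 11909 (0.003). Next above the bulk came Mrpl39 (-0.06), Mrpl35 (-0.07) and Mrpl9 (-0.24). In the probe sets used all 6 lay within 1.5-fold of no difference, although another of Mrpl9 (1036 and 638) lay at -0.70.

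By position in the large subunit, the stalk and the central protuberance had the lowest medians. The stalk proteins recruit the GTPases that drive elongation. All 4 measured stalk genes lay below 0, with a median of -0.90 and a range from -1.17 to -0.33. Mrpl12, the flexible stalk protein, read 7444 untreated and 3316 after T+E2 (2.24-fold lower, -1.17). Mrpl54 had 1887 and 859 (-1.14) and Mrpl10, the base of the stalk, had 1027 and 651 (-0.66). Mrpl53, also of this region, shared its probe set with Ccdc142, and that probe set lay at -1.20. The 7 genes of the central protuberance all lay below 0, with a median of -0.75 and 4 of them at least 1.5-fold lower. These were Mrpl46, Mrpl58 (6351 and 3325, -0.93), which encodes a peptidyl-tRNA hydrolase built into the ribosome, Mrpl48 (-0.84) and Mrpl18 (-0.75).

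The 5 genes grouped here with the catalytic centre, where peptide bonds form, lay between -0.89 and -0.33 with a median of -0.67. Mrpl27, which reaches toward the transfer RNAs, had 3166 and 1703 (-0.89). Mrpl2 was at -0.75, Mrpl3 at -0.67 and Mrpl16 at -0.59. The upper end was set by Mrpl4 alone (-0.33, named after its value was seen), and the others lay at -0.59 or lower. The 7 genes at the exit tunnel and the membrane side had the highest median of these groups (-0.45), with 6 below 0 and 2 at least 1.5-fold lower, Mrpl17 (6726 and 3808, -0.82) and Mrpl24 (-0.63). Each position group holds 4 to 7 genes, so their medians are descriptions of a few probe sets.

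Of the 24 large subunit genes in none of these position groups, 22 lay below 0 and 12 were at least 1.5-fold lower, with a median of -0.64. They include Mrpl20, Mrpl50, Mrpl14, Mrpl28 and Mrpl1 above. Mrpl19 had 937 and 409 (-1.19), although a dim probe set of this gene lay on the other side of 0. Mrpl57 had 4714 and 2187 (-1.11). The other 1.5-fold lower genes of this group ran from Mrpl21 (-0.81), Mrpl49 (-0.80) and Mrpl41 (-0.80) to Mrpl32 (-0.71) and Mrpl15 (-0.70).

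In the small subunit the lowest member was Mrps22, a mitochondria-specific protein. It read 3152 untreated and 1489 after T+E2 (2.12-fold lower, -1.08), and was the 1 gene of this subunit past 2-fold. Mrps17 had 7231 and 3735 (-0.95). Mrps35 had 2759 and 1428 (-0.95) and Mrps33 had 6187 and 3206 (-0.95). Mrps10 was at -0.92. Mrps17, Mrps18a, Mrps35 and Mrps33 were level with each other, and their order is not resolved beside a spike SD of 0.12.

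Further small subunit genes at least 1.5-fold lower were Mrps16 (-0.85), Mrps23 (-0.83), Mrps5 (-0.74), Mrps34 (-0.73), Mrps25 (-0.70), Mrps26 (-0.67), Mrps7 (-0.64), Mrps11 (-0.64) and Mrps28 (-0.63). Mrps5 had a dim probe set, at 175 and 105. Mrps2, a relative of a bacterial protein near the messenger RNA exit, was the 1 small subunit gene above 0, with 1955 untreated and 2467 after T+E2 (0.34). Below it came Mrps15 (-0.08), Mrps27 (-0.08), Mrps12 (-0.18), a component of the decoding centre, Mrps6 (-0.32) and Mrps24 (-0.33). Another measured probe set of Mrps24 (3529 and 1845) lay at -0.94.

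The mouse has 3 relatives of bacterial S18, each read by 1 probe set, and all 3 lay below 0. Mrps18a, at 2636 and 1361, was lowest (-0.95). Mrps18c, the member that takes the place of the bacterial protein, had 11206 and 7637 (-0.55). Mrps18b had 5345 and 4082 (-0.39). In members with several measured probe sets, the median SD between them was 0.29, so the order of Mrps18c and Mrps18b is not resolved. The Mrps18a protein and the Mrps30 protein sit in the large subunit despite their names, and Mrps30 had 3379 and 2489 (-0.44). Counting both genes with the large subunit left the medians at -0.63 and -0.63. Mrps36, at 4831 and 3540 (-0.45, given after its value was seen), encodes a protein also assigned to the 2-oxoglutarate dehydrogenase complex.

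Bacterial-type and mitochondria-specific genes were both low in each subunit. In the large subunit the 29 bacterial-type genes all lay below 0 with a median of -0.66, and the 18 mitochondria-specific genes had 15 below 0 and a median of -0.44. In the small subunit 17 of 18 bacterial-type genes (median -0.55) and 11 of 11 mitochondria-specific genes (median -0.70) lay below 0. With the trend of the difference over gene span subtracted, as described further on, the small subunit order turned, to -0.51 for bacterial-type and -0.49 for mitochondria-specific genes. The large subunit medians were then -0.49 and -0.38. Neither difference between medians could be tested.

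Several members had more than 1 measured probe set, which samples the same 2 RNAs at other positions of the transcript. Of 127 measured probe sets that named a member alone, 112 lay below 0, with a median of -0.55. The 46 members with 1 measured probe set had a median of -0.64 and the 30 with several a median of -0.45. Among these 30, 23 (76.7%) had their probe sets all on one side of 0, against 69.4% of the 4537 measured genes with several. Mrpl15 had 7 measured probe sets, all below 0, and its 4 brightest ones lay between -0.80 and -0.70. Mrpl11, named after its values were seen, had 3, at -1.03, -0.33 and -0.08.

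The remaining 7 genes had probe sets on opposite sides of 0. The widest was Mrpl19, whose brightest probe set lay at -1.19, another at -0.55 and a dim one, under the floor untreated (28.1 and 119), at 1.89. Mrpl1 lay at -1.39 in its brightest and 0.33 in the other. Mrpl3 had 3 probe sets below 0 and a dim one at 0.56. Mrps5 lay at -0.74 in the brightest, with 0.57 and 0.19 in the others, and Mrpl35 at -0.07 with 0.55 and 1.16 in the others. The probe sets at 0.19 and 1.16 were also under the floor untreated. Of the 11 genes past 2-fold, 5 had several measured probe sets, and in 3 of them these lay on the same side. The other measured probe sets of these 5 fell short of 2-fold lower. They lay at -0.74 in Mrpl28, -0.40 in Mrpl50, -0.15 in Mrpl57, -0.55 and 1.89 in Mrpl19 and 0.33 in Mrpl1. Averaging takes in probe sets under the floor. It also gave values over 1.5 times nearer 0 for Mrpl54 (-0.57), Mrpl58 (-0.46), Mrpl27 (-0.57) and Mrpl21 (-0.51). The same held for Mrpl17 (-0.07), Mrps10 (-0.47) and Mrps26 (-0.27). Mrpl57 (-0.63) and Mrps25 (-0.21) also came nearer 0, although all their probe sets were measured. Their other probe sets lay at -0.15 in Mrpl57 and at 0.05 and 0.003 in Mrps25. Probe sets whose names end in _x_at or _s_at, which can bind related transcripts, had a median of -0.35 over 21. The plain ones had -0.55 over 76, and those whose names end in _a_at had -0.76 over 30.

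**Figure D2:**
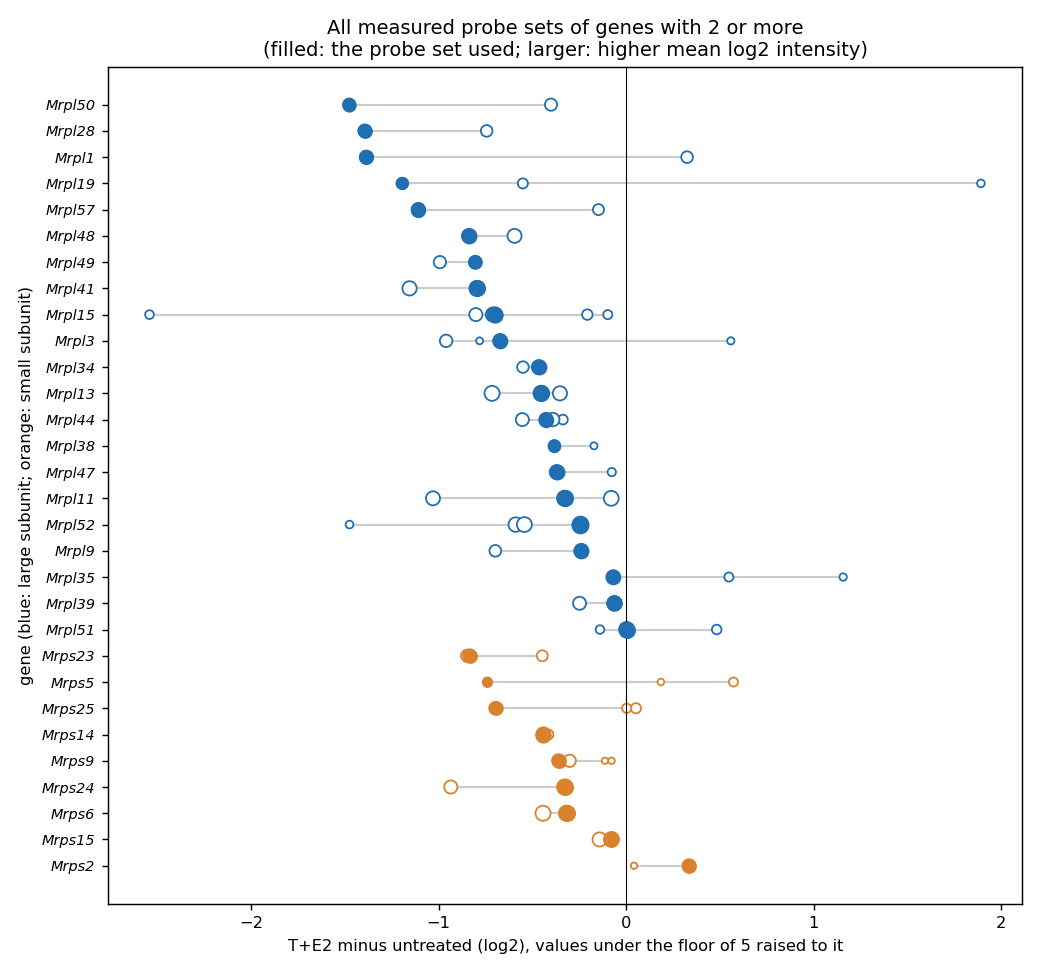
Difference T+E2 minus untreated (log2, horizontal axis) of every measured probe set for the 30 genes with 2 or more, with the probe set used filled and larger circles for higher mean intensity. In 23 of 30 genes the circles share a side of 0, and the far right circle of Mrpl19 (1.89) is a dim probe set.

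Short genes were lower with T+E2 across the whole array, and mitochondrial ribosomal protein genes are short. Genomic span, the distance from the first to the last base of a gene, had a median of 7690.5 bases over members and 24471 over measured genes. Over all measured genes the median difference rose from -0.25 in the shortest of 20 span bins to 0.61 in the longest. Spearman's rho between difference and span was 0.38 across 10235 genes, which are not independent and share the same 2 arrays. Across the 76 members it was -0.02. With the trend over all genes subtracted, the median was -0.49 for the large and -0.49 for the small subunit. On this scale 69 of 76 members lay below 0, against 50.2% of the 10235 genes. At least 1.5-fold lower were 31 members, against 1551 of the 10235 genes. At least 2-fold lower were 11 members, against 447 of the 10235 genes.

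Span bands gave the same picture. Among the 23 members over 10 kb, 21 lay below 0 with a median of -0.67, where the 7832 measured genes of that span had a median of 0.16 and 37.7% below 0. Among the 34 members of 4 to 10 kb, 33 lay below 0 with a median of -0.57, against -0.15 and 61.2%. Among the 19 members under 4 kb, 18 lay below 0 with a median of -0.67, against -0.23 and 67.8%. Mrpl1, which spans 57230 bases, lay at -1.65 with the trend subtracted, and Mrps28, with the longest span of any member (121712 bases), at -1.08. Signal level did not order the members either. The 12 with a mean log2 level under 10 had a median of -0.51, the 30 from 10 to 12 had -0.81 and the 34 at 12 or more had -0.55, while all measured genes in these bands had medians of 0.10, 0.09 and 0.02.

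**Figure D3:**
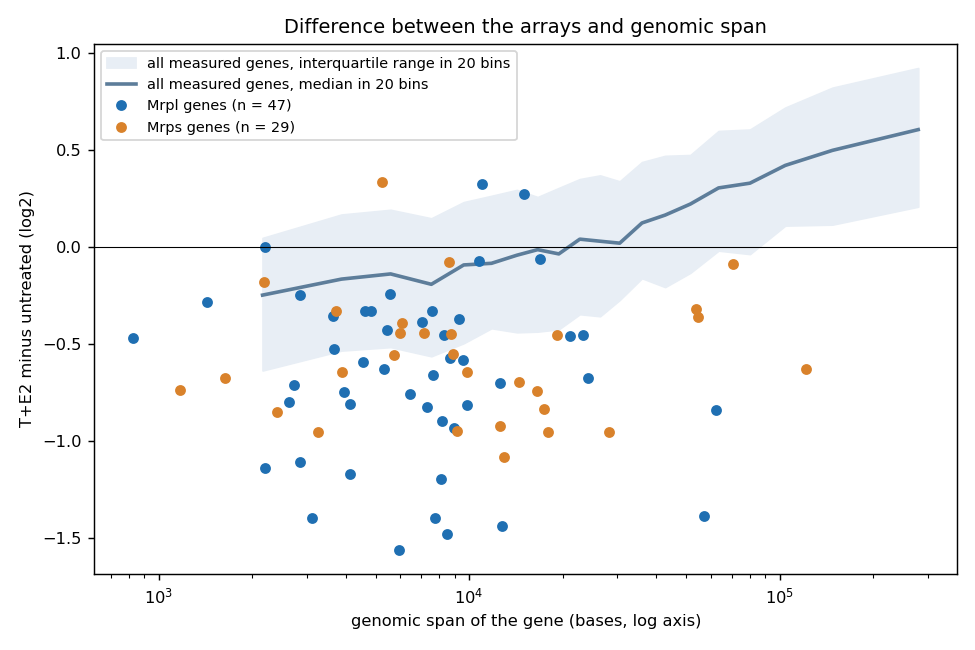
Difference T+E2 minus untreated (log2) against genomic span in bases (log axis) for the 47 Mrpl genes (blue) and the 29 Mrps genes (orange), with the median (line) and interquartile range (band) of all measured genes in 20 span bins. The line rises from -0.25 to 0.61, and 69 of the 76 members lie below it, against 50.2% of all measured genes with a span.

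Mitoribosomal proteins that carry other names were low as well. All 4 measured lay below 0 (against 43.7% of all measured genes) with a median of -0.90, and 3 (75%, against 14.1%) were at least 1.5-fold lower. Chchd1 had a log2 level of 12.43 untreated and 11.18 after T+E2 (-1.25). Ptcd3, a pentatricopeptide protein of the small subunit, had 11.38 and 10.39 (-0.99). Gadd45gip1, a large subunit protein near the tunnel exit, had 10.23 and 9.41 (-0.82).

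Genes that assemble the mitochondrial ribosome were lower in part. Of 22 measured genes in the assembly and ribosomal RNA modification list, 18 (81.8%) lay below 0. At least 1.5-fold lower were 6 (27.3%), and none was 1.5-fold higher. The median of the list was -0.40. The shares over all measured genes were 43.7%, 14.1% and 17.1%. The ribosomal RNA methyltransferase genes Mrm2 and Mrm3 lay at -1.45 and -1.43. The GTPase gene Mtg2 went from 6.29 to under the floor (at least 2.45-fold lower). The 22 and the 6 also count Metap1d (-1.23), a mitochondrial methionine aminopeptidase gene and not an assembly or ribosomal RNA modification gene.

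Translation factor genes were low to a similar degree, and synthetase genes lay closer to the bulk of genes. Of 10 measured translation factor genes, 7 (70%, against 43.7% of all measured genes) lay below 0, with a median of -0.47. At least 1.5-fold lower were 4 (40%, against 14.1%). The 4 were the elongation factor gene Guf1 (-0.99), the initiation factor gene Mtif3 (-0.75), Mtfmt (-0.61), whose enzyme formylates the initiator transfer RNA, and the recycling factor gene Mrrf (-0.60). The main elongation factor gene Tufm, named after its value was seen, lay at 0.03. Of 15 measured mitochondrial aminoacyl-tRNA synthetase genes, 10 (66.7%, against 43.7%) lay below 0 and 1 (6.67%, against 14.1%) was at least 1.5-fold lower, with a median of -0.19. Hars2 was lower (-1.23) and Mars2, near the floor at 5.14 and 5.82, was higher (0.68).

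Genes for the upkeep and transcription of mitochondrial DNA had a median near that of all genes, with a tail of lower genes. Of 15 measured, 7 (46.7%, against 43.7% of all measured genes) lay below 0, with a median of 0.10. At least 2-fold lower were 3 (20%, against 4.01%), and at least 1.5-fold lower were 4 (26.7%, against 14.1%). The lower ones were the transcription elongation factor gene Tefm (10.91 and 9.22, -1.69), Mterf1a (-1.06), the RNA-degrading enzyme gene Pnpt1 (-1.04) and Ssbp1 (-0.66). Named after their values were seen, the packaging factor gene Tfam lay at 0.32 and the RNA polymerase gene Polrmt at 0.17. Regulators of mitochondrial biogenesis stayed within 1.5-fold in all 9 measured genes, with a median of 0.01. The largest were Gabpb2 (0.33) and Gabpa (0.32), subunits of an ETS-family factor that acts on many of these genes. Nrf1 and Yy1, named after their values were seen, both lay at 0.01. In the inner membrane insertion list Timm22 (-0.79) and Mtch2 (-0.62) were at least 1.5-fold lower (25%, against 14.1% of all measured genes). Of its 8 genes 3 (37.5%, against 43.7%) lay below 0, with a median of 0.19. Averaging probe sets turned this median to -0.30.

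Set beside respiratory chain and cytosolic ribosomal protein genes, the mitochondrial ribosomal proteins had the lowest median. The respiratory chain list, which also takes in ATP synthase (Atp5) subunits, had 70 measured nuclear genes with a median of -0.29. Of these 66 lay below 0 (94.3%, against 43.7% of all measured genes). At least 1.5-fold lower were 12 (17.1%, against 14.1%), and none was at least 2-fold lower (against 4.01%). Uqcrq (-0.88), Ndufb9 (-0.88), Ndufs4 (-0.85) and Ndufb2 (-0.85) were lowest. The 40 measured cytosolic ribosomal protein genes had 30 below 0 (75%) and 2 at least 1.5-fold lower (5%), with a median of -0.04. Those 2 were Rpl12 (log2 levels 9.87 untreated and 8.20 after T+E2, -1.66) and Rps25 (12.05 and 11.12, -0.92). Both were read by probe sets dimmer than the untreated median log2 level of this class (14.99). With the span trend subtracted the medians were -0.49 for all mitochondrial ribosomal protein genes, -0.17 for the respiratory chain and 0.14 for cytosolic ribosomal proteins. The classes also differed in signal level, with untreated median log2 levels of 12.00, 13.85 and 14.99 in the same order. Among all measured genes, 8.71% at a mean level of 12 or more were at least 1.5-fold lower, against 15.7% from 10 to 12. The part of level in these medians was not tested. The medians of these classes could not be compared by a test with 1 array per condition.

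**Figure D4:**
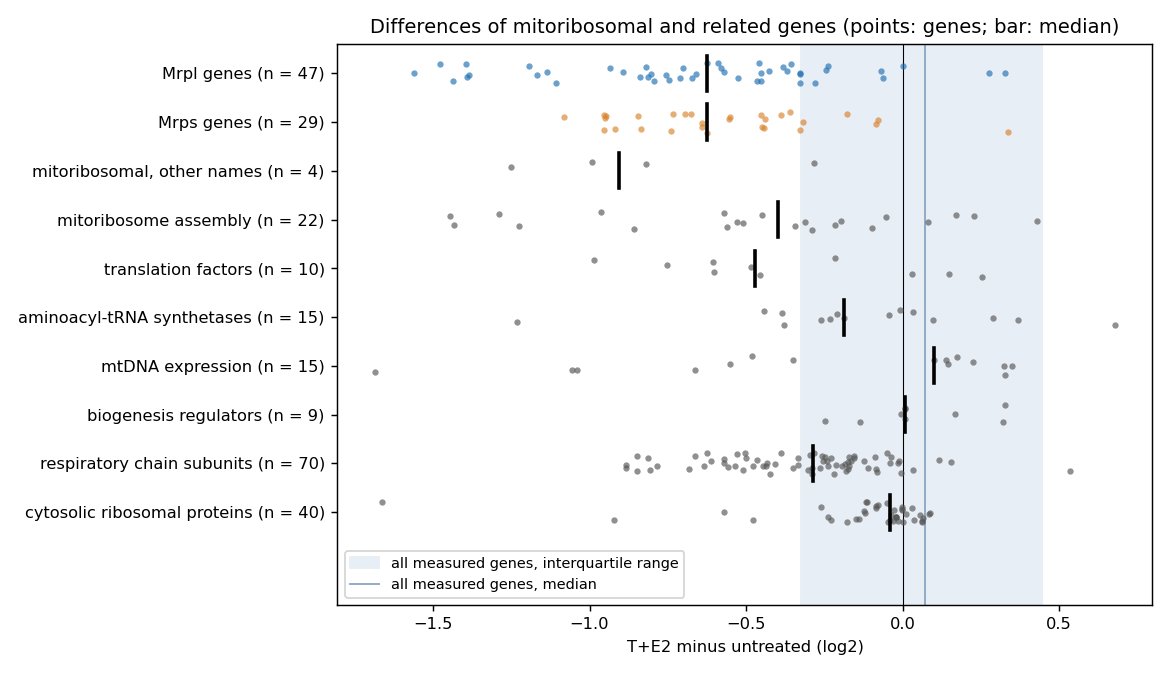
Difference T+E2 minus untreated (log2, horizontal axis) of each measured gene (points) in both subunits and in related lists, with list medians (black bars) and the median and interquartile range of all measured genes (blue line and band). Both subunits have medians of -0.63, the respiratory chain (with ATP synthase subunits) -0.29, mtDNA expression 0.10 and cytosolic ribosomal proteins -0.04.

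Since the members lay low together, their promoters were described from RefSeq sequence (GRCm38.p6), in windows from 250 bases before to 50 after the annotated start. Of the 76 members 67 matched, with 73 windows. ETS-family factors such as GABP bind around CCGGAAG, and NRF1 binds a GC-rich palindrome-like motif. The sequences below show the 250 bases before the start, 5′ to 3′, with a match to the ETS, NRF1 or YY1 motif on either strand in capitals. They were chosen after the differences were seen. They are the stalk gene Mrpl12 (chr11:120484387-120484636, + strand), the catalytic centre gene Mrpl27 (chr11:94653541-94653790, + strand), the lowest small subunit gene Mrps22 (chr9:98601680-98601929, - strand) and Mrps2 (chr2:28467816-28468065, + strand), the member highest above 0.
Mrpl12: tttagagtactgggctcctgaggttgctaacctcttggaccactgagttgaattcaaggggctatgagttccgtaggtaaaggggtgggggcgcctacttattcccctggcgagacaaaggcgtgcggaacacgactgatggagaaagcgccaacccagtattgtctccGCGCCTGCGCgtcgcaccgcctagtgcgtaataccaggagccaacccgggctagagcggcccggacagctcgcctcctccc
Mrpl27: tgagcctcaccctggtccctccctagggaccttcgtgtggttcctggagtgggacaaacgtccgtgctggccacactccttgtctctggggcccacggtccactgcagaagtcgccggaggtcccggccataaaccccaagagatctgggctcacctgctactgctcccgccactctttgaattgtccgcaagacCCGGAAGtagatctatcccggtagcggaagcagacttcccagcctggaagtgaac
Mrps22: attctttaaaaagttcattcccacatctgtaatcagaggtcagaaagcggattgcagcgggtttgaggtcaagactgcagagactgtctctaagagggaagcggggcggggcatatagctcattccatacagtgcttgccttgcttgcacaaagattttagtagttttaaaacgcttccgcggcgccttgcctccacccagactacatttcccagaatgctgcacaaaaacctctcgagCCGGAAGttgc
Mrps2: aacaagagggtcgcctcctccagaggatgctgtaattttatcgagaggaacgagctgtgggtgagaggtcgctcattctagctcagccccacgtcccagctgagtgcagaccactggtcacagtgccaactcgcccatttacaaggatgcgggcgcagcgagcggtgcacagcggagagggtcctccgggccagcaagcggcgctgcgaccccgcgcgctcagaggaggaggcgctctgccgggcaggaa

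The NRF1 match begins 81 bases before the start of Mrpl12, and the ETS match 55 bases before that of Mrpl27 and 11 bases before that of Mrps22. In Mrps2 none of the 3 motifs is found in this window. These windows do not stand for a rule, since the other members above 0 held a match (NRF1 in Mrpl45, ETS in Mrpl51, YY1 in Mrpl37), and Mrpl20, Mrpl50, Mrpl28, Mrpl46 and Mrpl1, among the lowest members, held none. Over all members, CCGGAAG was found in 25 of 73 windows (34.2%), against 8.86% of the 32851 windows in the table and 18.6% of windows of measured genes. The longer form CCGGAAGT, which contains the former, was found in 12 windows (16.4%, against 3.89% and 8.59%). The NRF1 letters were found in 12 windows (16.4%, against 4.60% and 10.7%) and the YY1 letters in 5 (6.85%, against 0.852% and 2.17%). CCAAT was found in 29 windows (39.7%, against 37.4% and 38.0%) and TATAAA in 5 (6.85%, against 13.6% and 7.0%). The 25 members with CCGGAAG had a median difference of -0.67 and the 42 without it -0.49, and all measured genes with and without it had -0.06 and 0.10. The 12 members with the NRF1 letters had -0.61 and the 55 without them -0.59, while the 5 with the YY1 letters had -0.08 and the 62 without them -0.61. These are counts of letters and say nothing about binding.

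A large share of members had a neighbour whose start lies back to back with theirs, on the opposite strand within 1000 bases. This held for 25 of 67 members (37.3%), against 21.1% of measured genes with a window. In 1 case both genes were members, the large subunit gene Mrpl46 (-1.39) and the small subunit gene Mrps11 (-0.64), whose starts are 42 bases apart. The 17 measured neighbours that were not members had 13 below 0 and a median of -0.11, with 2 at least 1.5-fold lower and 1 at least 1.5-fold higher. All 1095 measured neighbours of this kind likewise had a median of -0.11, with 57.9% below 0 and 21.5% at least 1.5-fold lower. Named after their values were seen, Mrpl18 (-0.75) faced the chaperonin gene Tcp1 (-0.09), Mrpl32 (-0.71) the proteasome gene Psma2 (-0.47), Mrpl49 (-0.80) the gene Fau (-0.18), and Mrps18c the helicase gene Helq (-1.08). On the other side of 0, Mrpl40 (-0.33) faced the histone chaperone gene Hira (0.79), Mrpl51 the condensin gene Ncapd2 (0.40) and Mrpl43 (-0.28) the mitochondrial helicase gene Twnk (0.23).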

How the data were processed

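RNA samples, 1 per condition, were compared. The deposited table holds intensity on what its range of values shows to be a linear scale, and GCRMA is named in the submitters' processing notes, with no version or build given in the sources used here. Total RNA and NuGEN biotinylated cDNA were prepared per the labels' protocols. Of 45101 probe sets, 34945 named 1 gene through the platform's annotation, 932 named several and 9160 none, besides 64 controls. All 76 members were found by gene identifier in the RefSeq table of GRCm38.p6, used for names and spans. Intensities were taken to log2 with no rescaling and raised to a floor of 5. The members and gene lists were chosen with earlier results of these data known.

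Named with values were the 6 highest and 6 lowest members of each subunit, those at least 1.5-fold different, fixed genes (Mrpl12, Mrps30, Mrps18a, Mrps18b, Mrps18c), the widest 5 with opposed probe sets, and up to 4 genes per other list. Trends with span or level were running medians in 20 bins. Python 3.11.15 and pandas 2.3.3 were used. The procedures were tested on simulated data. Of 10 alternatives, 1 (a trend with level) was chosen after seeing the data, as was the search for back-to-back neighbours.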

Additional observations from a re-analysis of the deposited data

How the results depend on the processing

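The medians of both subunits, the count below 0 and the counts past 1.5-fold and 2-fold kept their direction under all 10 alternatives. Floors of 4 and 6, no floor and updated symbols left every member's difference where it was. A value counted as moved beyond the spike SD of 0.12, or a count beyond 1.5 times. With the span trend removed, the medians moved to -0.49 (large) and -0.49 (small). With the mean of all probe sets, which takes in probe sets near background, the medians were -0.51 (large) and -0.50 (small). Of these only the small subunit median counted as moved. In this setting 31 members instead of 40 were at least 1.5-fold lower, and 5 were at least 2-fold lower. Mrpl19 turned to 0.14, Mrpl35 from -0.07 to 0.55 and the inner membrane insertion median to -0.30. That setting measured 75 members and moved 26 of them. Without _x_at and _s_at probe sets 73 members were left, of which 5 moved. No paired analysis was possible because each condition had 1 array. No array could be left out for the same reason.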
